A study of Mus musculus with 12 samples.

Results

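The comparison is of day 5 primordial germ cell-like cells (PGCLCs) of a bisphenol A (BPA) arm with untreated PGCLCs, chosen by the sample titles: 3 libraries of each, 6 of the 12 libraries in the series. The other 6 are epiblast-like cells (EpiLCs), the stage from which PGCLCs are made, 3 with 100 nM BPA and 3 without. All libraries are mRNA libraries of mouse C57BL/6 cells that carry the reporters Blimp1-mVenus and Stella-ECFP (BVSC), for the genes Prdm1 and Dppa3. Embryonic stem cells were kept with kinase inhibitors and LIF, turned into EpiLCs over 48 h and aggregated in PGCLC medium, and cells positive for both reporters were sorted from the aggregates. The protocol states that EpiLCs met BPA at 100 nM for their last 24 h. It does not say whether the PGCLC medium also held BPA, how many cell lines or clones were used, or whether each replicate had a culture of its own, and the p-values cover no more than the variation among these 6 libraries, which may be technical. BPA against untreated is described here across all genes and for each replicate.

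As background, PGCLCs model the first germ cells of the embryo, which arise from the epiblast in response to BMP signals and switch on Prdm1 and Dppa3 while regaining genes of naive pluripotency. The visceral endoderm is a neighbouring epithelium of the early embryo. It absorbs maternal nutrients through a brush border, breaks them down in lysosomes and secretes plasma proteins such as alpha-fetoprotein and apolipoproteins, much as liver cells do later. BPA is a plasticiser with weak hormone-like activity that binds oestrogen receptors.

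Each PGCLC library held 30375633 to 34309195 counts assigned to genes, over 16491 to 17468 genes, and genes under 10 counts were left unlisted by the authors, which bounds the level of such a gene at 0.262 to 0.296 CPM, counts scaled to the library total. BPA replicates 1 and 2 were far closer to each other than any other PGCLC pair: the chi-square of their counts per degree of freedom was 4.13, above the sampling noise of 1, against 18.95 to 22.65 among the untreated libraries and 54.6 to 55.8 between BPA replicate 3 and the other BPA libraries. They were kept as separate libraries, and a list count is also given from a fit of their sum where it differs by more than 1.5 times. The sample descriptions of the untreated and of the BPA PGCLC libraries follow different naming schemes, and the BPA files alone among the PGCLC files carry a row for reads that aligned to several places. A difference between library sets and the effect of BPA therefore cannot be told apart. The reporter genes were listed in every PGCLC library: Prdm1 at 179.8, 188 and 202 CPM untreated and 147, 144 and 166 CPM with BPA in replicates 1 to 3, lower with BPA (adjusted p = 0.0334, a call that held in 14 of 23 alternatives), and Dppa3 at 207, 236 and 254 and 209, 199 and 248 CPM (adjusted p = 0.67). Of the other germ cell markers Prdm14, Tfap2c, Nanos3 and Dnd1 were also listed in all 6 libraries. Being listed is a weak check of identity, because all 6 EpiLC libraries also listed Prdm1 (9.96 to 11.9 CPM) and Tfap2c (5.12 to 5.77 CPM). Of these 6 germ cell markers 3 were lower with BPA and 0 higher (median log2 change -0.43). The lower ones were Prdm1, Prdm14 and Tfap2c (log2 change -0.41, adjusted p = 0.0184 by edgeR's quasi-likelihood test). In 5 of the 6 all 3 BPA libraries stood below all 3 untreated ones. All 5 pluripotent cell markers were lower too (median log2 change -0.29).

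Of 16753 genes tested, 2321 passed an adjusted p of 0.05 (13.9%): 1362 were higher with BPA (8.13%) and 959 lower (5.72%), by edgeR's quasi-likelihood test with Benjamini-Hochberg adjustment. Adjusted p-values below are from this test unless said otherwise, changes are log2 of BPA over untreated ± SE, levels are CPM, and n = 3 per group. Counts in gene lists below are to be read against the shares of 8.13% higher and 5.72% lower over all genes tested. Calls were more frequent among abundant genes. Of 9434 genes averaging at least 10 CPM 1034 were higher and 791 lower, and of 2513 averaging at least 100 CPM 325 and 330. Lists of abundant genes, among them many of the falls, are to be read against these counts too. Rises were larger than falls: 606 genes rose and 180 fell at least 2-fold, also with genes unlisted in a whole group set at their bound, and the median change was 0.87 among the higher and -0.53 among the lower genes, against 0.01 over all genes tested. In 1351 of the 1362 higher genes all 3 BPA libraries stood above all 3 untreated ones, and in all 959 lower genes all 3 stood below; over all genes tested the groups failed to overlap in 18.5% (BPA above) and 16.5% (BPA below). The higher genes together took 8.33%, 8.44% and 8.29% of the tested counts in untreated replicates 1 to 3 and 15.2%, 15.5% and 12.3% in the BPA replicates. The lower genes took 20.1% to 20.5% untreated and 13.9% to 14.7% with BPA. The number of calls changed with the libraries used: it was 677 without BPA replicate 1, 668 without replicate 2, 755 with the 2 summed as 1 library and 3206 without replicate 3, and 1243, 1110 and 891 without untreated replicates 1, 2 and 3.

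**Figure D1:**
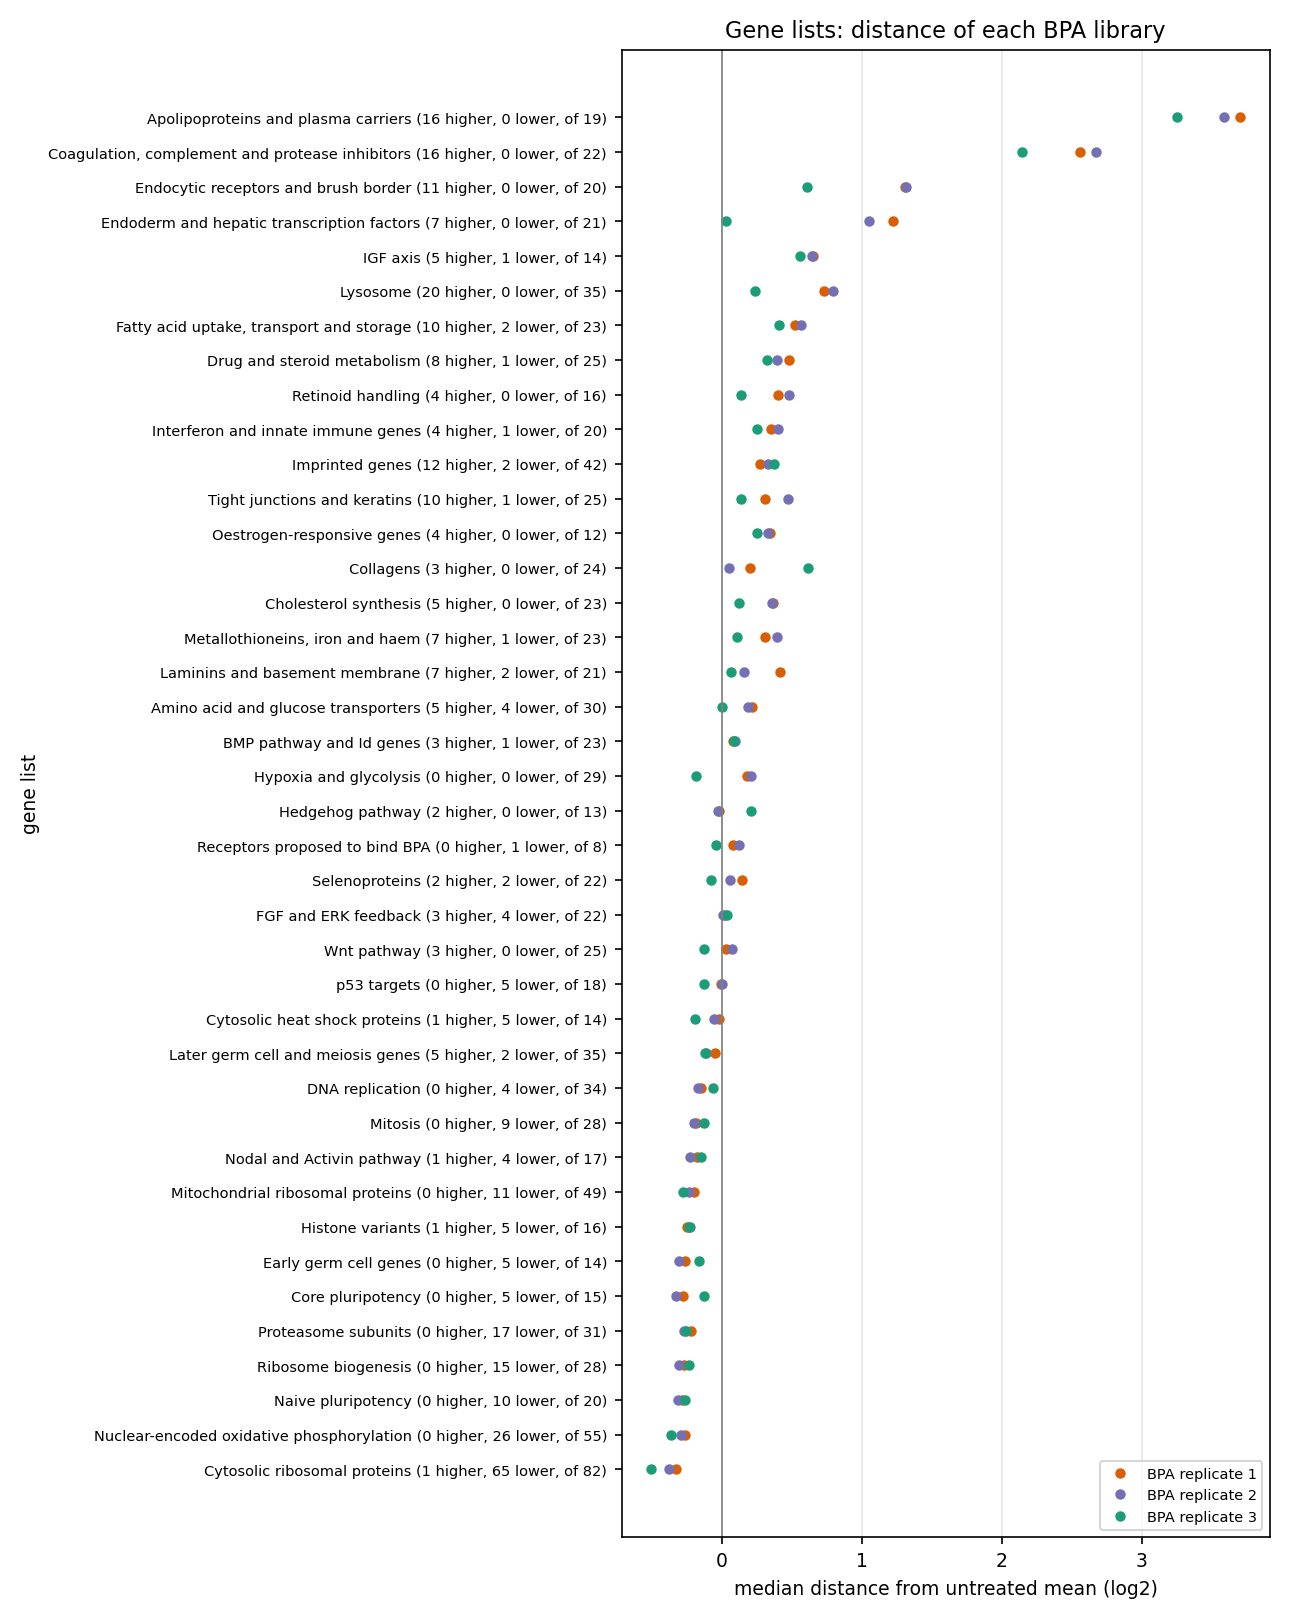
Median distance of each BPA library from the untreated mean (x axis, log2 of CPM plus 0.5) over the tested members of each gene list shown (y axis, with members called higher and lower). Each dot is 1 BPA library. Of the lists shown, the plasma carrier list lies farthest to the right and the ribosomal protein list farthest to the left, and BPA replicate 3 (green) lies nearer 0 than the other 2 for most lists on the right.

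Most tested genes for secreted plasma proteins rose. Of 19 tested genes for apolipoproteins and plasma carriers, 16 were higher and 0 lower, with a median change of 5.35, or 4.42 with genes unlisted in all untreated libraries at their lower bound. Of 22 genes for coagulation, complement and protease inhibitors, 16 were higher and 0 lower (median 4.18, or 2.95 at the bound). The list of visceral or liver-type endoderm markers had a median of 3.09, fitted or bounded alike. The stretches below lie upstream of the starts of 4 of these genes (RefSeq, GRCm38.p6) and are shown because they hold letters of a FOXA motif. Whether FOXA proteins act there was not tested. Capitals mark TGTTTAC or TATTTAC on either strand, read by FOXA proteins. All run 5′ to 3′ along the gene's strand.
Apoa2, chr1:171224962-171224998, plus strand: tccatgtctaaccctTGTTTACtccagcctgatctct
Fgb, chr3:83049947-83049983, minus strand: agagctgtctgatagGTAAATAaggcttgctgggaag
Rbp4, chr19:38125541-38125571, minus strand: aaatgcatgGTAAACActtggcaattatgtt
Serpinf2, chr11:75439599-75439635, minus strand: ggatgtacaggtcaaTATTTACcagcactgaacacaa
In the 250 bases before the start, TGTTTAC or TATTTAC was found on either strand in 6.51% of the 27025 genes of the RefSeq table, in 4.50% of the 11861 tested genes matched to it, in 5.83% of 1063 matched higher genes and in 4.28% of 701 matched lower genes. CAAAGTCCA, a motif of HNF4, was found in 0.451%, 0.430%, 0.659% and 0.285% of the same sets. A match is a string of letters, not a site shown to be bound. Each stretch shown holds 1 match. Of the 32 called genes of both lists 24 had a promoter in the table, and in these the FOXA letters were found in 4 and the HNF4 letters in 0.

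Afp, the main serum protein of the fetus (chromosome 5, 90490737 to 90508907, mm10), was at 46.1, 24.4 and 29.0 CPM in untreated replicates 1 to 3 and 2538, 2502 and 1355 CPM in BPA replicates 1 to 3. The groups lay far apart, with BPA replicate 3 the lowest of its group, and the change was 6.01 ± 0.35 (adjusted p = 0.000206). Apob, the structural protein of lipoproteins, was at 196, 128 and 121 CPM untreated and 3840.3, 4365 and 2189 CPM with BPA, a change of 4.55 ± 0.31 (adjusted p = 0.000347). Apoa1, the main protein of HDL, went from 22.4 ± 3.89 to 909.9 ± 405 CPM (mean ± SD) and Rbp4, the plasma carrier of retinol, from 16.2 ± 4.72 to 346 ± 112 CPM. Apoa2, another HDL protein gene, named for the letters before its start, was at 1.04, 1.82 and 3.29 CPM untreated and 57.1, 56.5 and 39.5 CPM with BPA (adjusted p = 0.000643). For each of these genes the groups did not overlap. Apoa4 was unlisted in untreated replicates 1 and 2 and at 0.316 CPM in replicate 3, and at 83.3, 83.0 and 55.2 CPM with BPA. The 3 fibrinogen chain genes rose together, Fgb by 4.61 ± 0.21 (adjusted p = 0.000176), Fgg by 4.90 ± 0.29 and Fga by 7.68 ± 0.69; Fga was unlisted in untreated replicates 1 and 2, read as 0 in the fit, so its fitted change is no bound. Fga was at 52.2, 51.0 and 60.01 CPM with BPA, so here replicate 3 was the highest of its group. Serpinf2, an inhibitor of plasmin, was at 2.28, 1.21 and 2.34 CPM untreated and 86.6, 84.9 and 40.1 CPM with BPA (5.18 ± 0.38, adjusted p = 0.000458). With one library left out in turn, calls in the plasma carrier list numbered 15, 13 and 14 without untreated replicates 1, 2 and 3 and 12, 13 and 16 without BPA replicates 1, 2 and 3. In the coagulation list they numbered 11, 10, 13, 8, 8 and 15 in the same order, and 8 with BPA replicates 1 and 2 summed.

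In bulk libraries a larger share of cells of a type and more RNA per cell of it cannot be told apart. Of the 8 markers of visceral or liver-type endoderm used here, 6 were higher and 0 lower, and their summed level was 888, 631 and 569 CPM untreated and 5684, 5689 and 2622 CPM with BPA. None of the 8 was unlisted throughout the untreated libraries. Cubn, an endocytic receptor of this epithelium, was at 754, 534 and 459.9 CPM untreated and 1211, 1291 and 459 CPM with BPA and did not pass the test (adjusted p = 0.207), nor did Sox17 (adjusted p = 0.572); both are named after their values were seen. The markers' part in the changes of other gene groups below was not tested.

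**Figure D2:**
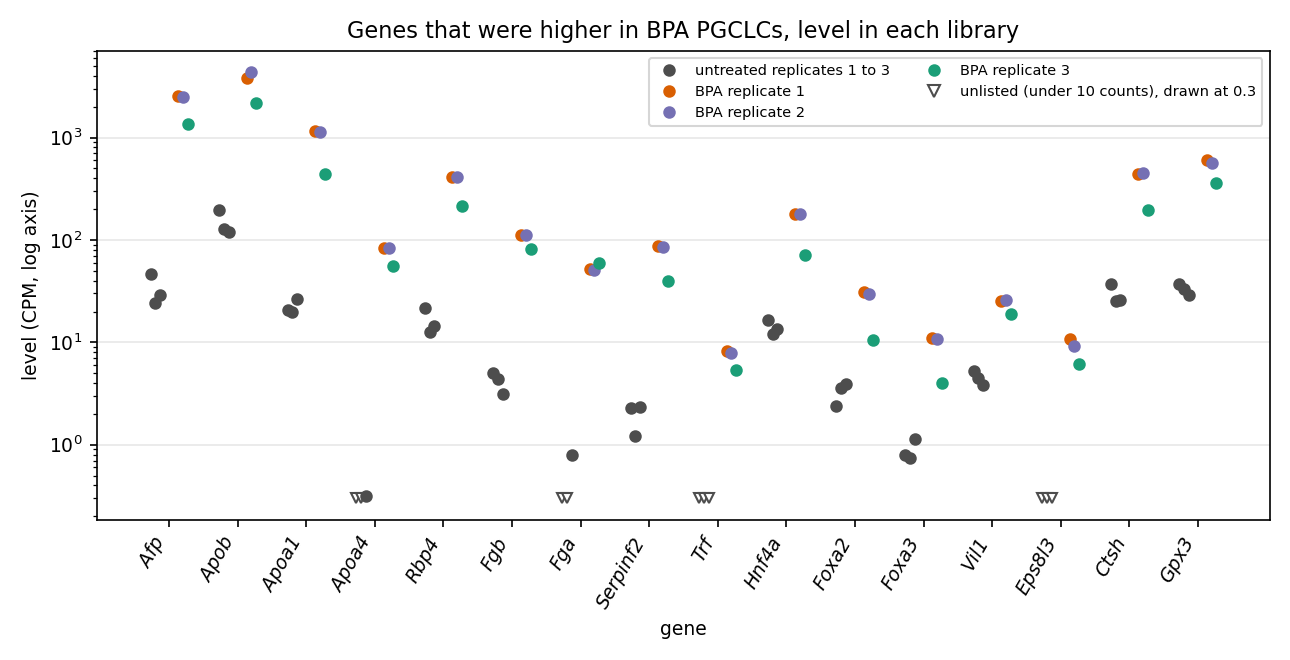
Level of 16 higher genes in each PGCLC library (y axis, CPM, log axis), untreated replicates in grey and BPA replicates in colour; open triangles are unlisted values drawn at 0.3 CPM. For every gene shown the 3 BPA libraries lie above the 3 untreated ones, and BPA replicate 3 is the lowest of the BPA group in all but Fga.

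The 15 largest fitted rises were taken among called genes averaging at least 1 CPM whose groups did not overlap. Predicted gene models (Gm and Rik names) and pseudogenes were passed over. No untreated library listed 14 of the 15. The fit reads such genes as 0, which puts them at the top of this ranking, so their number here follows from the rule. Their folds are lower bounds computed with 9 counts per untreated library. On the log2 scale these bounds ran from 3.23 (Slc28a2) to 5.35 (Card14). Afp, listed in every untreated library, rose by 6.01 and is not among the 15, so the order of the largest rises is uncertain. Card14, a scaffold protein of NF-kappa-B signalling in epithelia (chromosome 11, 119307768 to 119345375, mm10), was at 13.2, 11.98 and 9.40 CPM with BPA, at least 40.8-fold higher. Eps8l3, a member of the brush border list, was at 10.7, 9.24 and 6.203 CPM (at least 30.8-fold) and Trf, the plasma iron carrier transferrin, at 8.29, 7.87 and 5.33 CPM (at least 25.4-fold). The bounds of the other 11 were lower: Sec16b at least 15.2-fold, Pde6c 14.2, Itih2 13.9, Ugt2b34 12.8, Slc26a1 12.3, Fabp2 11.8, Apoa5 11.6, Proz 11.5, Ifit1 10.9, BC035947 9.54 and Slc28a2 9.37. Itih2, Apoa5 and Proz are liver-secreted plasma proteins, Fabp2 an intestinal fatty acid binding protein and Ifit1 an interferon-induced gene. BPA replicate 3 was the lowest of its group in 13 of the 15, with Slc26a1 (2.42, 3.45 and 4.58 CPM) and Slc28a2 (2.87, 2.21 and 2.86 CPM) the exceptions. Apoa4 was the one gene of the 15 that an untreated library listed.

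Part of the genes of endocytosis and lysosomal breakdown rose. Of 35 lysosome genes, 20 were higher and 0 lower (median 0.57), and their summed level was 3879, 3641 and 3576 CPM untreated and 8963, 8924 and 5229 CPM with BPA. Ctsh, a cathepsin protease, was at 37.4, 25.2 and 25.9 CPM untreated and 443, 446 and 195 CPM with BPA (3.61 ± 0.33, adjusted p = 0.00108). The legumain gene Lgmn rose by 2.08 ± 0.25, the cathepsin genes Ctsb by 1.82 ± 0.24 and Ctsl by 1.68 ± 0.31, and Lipa, the acid lipase of lysosomes, by 1.90 ± 0.23. Ctsl had one of the 10 largest differences in mean CPM, from 462 ± 63.8 to 1483 ± 637, and BPA replicate 3, at 748 CPM, lay nearer the untreated libraries than the other 2. Among 20 genes of endocytic receptors and the brush border, 11 were higher and 0 lower (median 1.53). Vil1, which bundles actin in microvilli, was at 5.25, 4.51 and 3.82 CPM untreated and 25.2, 26.0 and 18.9 CPM with BPA (adjusted p = 0.000726). Fcgrt, the neonatal Fc receptor that carries immunoglobulin G, rose by 2.67 ± 0.25 and Cdhr2, a cadherin between microvilli, by 4.25 ± 0.53. Calls in the lysosome list numbered 11, 10 and 11 without untreated replicates 1, 2 and 3 and 14, 14 and 29 without BPA replicates 1, 2 and 3, and in the brush border list 5, 8, 4, 4, 5 and 15 in the same order, with 5 in the summed fit.

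Part of the lipid handling genes rose. Of 23 genes of fatty acid uptake, transport and storage, 10 were higher and 2 lower (median 0.66). Mttp, which loads lipid onto Apob, was at 38.6, 28.4 and 29.5 CPM untreated and 263, 247 and 111 CPM with BPA (2.68 ± 0.31, adjusted p = 0.00259). The lipid-esterifying enzyme genes Dgat2 and Soat2 rose by 1.59 ± 0.19 and 2.86 ± 0.41. Of 23 cholesterol synthesis genes, 5 were higher and 0 lower, by less: Msmo1 by 0.73 ± 0.12 (adjusted p = 0.00853) and Dhcr7 by 0.46 ± 0.10. The cholesterol count was 2, 1 and 1 without untreated replicates 1, 2 and 3 and 1, 1 and 10 without BPA replicates 1, 2 and 3, and 1 in the summed fit. For the fatty acid list it was 10, 7, 7, 7, 7 and 11 in the same order.

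Some carriers and enzymes for vitamins, metals and foreign compounds changed too. Among 16 retinoid genes 4 were higher and 0 lower: besides Rbp4 these were Stra6l, which encodes a receptor for Rbp4 (4.10 ± 0.51), Rdh10, which oxidises retinol (1.66 ± 0.40), and Cyp26a1, which degrades retinoic acid (3.65 ± 0.90). Cyp26a1 was high in BPA replicates 1 and 2 alone, at 168, 164 and 8.93 CPM against 11.2, 6.64 and 9.29 CPM untreated. Of 25 drug and steroid metabolism genes, 8 were higher and 1 lower. Abcc2, an export pump for conjugated compounds, was at 13.2, 13.9 and 15.7 CPM untreated and 139.9, 142 and 82.3 CPM with BPA (3.09 ± 0.22, adjusted p = 0.000367). The glutathione transferase gene Gstm1 rose by 1.16 ± 0.09, and the cytochrome gene Cyp1b1 was the one that fell (-0.84 ± 0.16, adjusted p = 0.0146, named after its values were seen). Of 23 metallothionein, iron and haem genes, 7 were higher and 1 lower. The lower one was Tfrc, the transferrin receptor gene, at 636, 507 and 534 CPM untreated and 365, 376 and 290.0 CPM with BPA (-0.70 ± 0.12, adjusted p = 0.00916), while its ligand gene Trf and the zinc transporter genes Slc39a4 (0.94 ± 0.13) and Slc39a8 (1.45 ± 0.22) rose. Of 22 selenoprotein genes 2 were higher and 2 lower, near the shares over all genes tested (8.13% higher, 5.72% lower). The 2 that rose encode secreted proteins: Gpx3, plasma glutathione peroxidase, at 36.9, 33.3 and 28.9 CPM untreated and 597, 563 and 358 CPM with BPA (3.94 ± 0.21, adjusted p = 0.000206), and Selenop, the plasma selenium carrier (2.52 ± 0.21). Selenoh (-0.60 ± 0.08) and Gpx1 (-0.23 ± 0.06) fell. Counts of higher genes with one library left out in turn (untreated replicates 1, 2, 3, then BPA replicates 1, 2, 3) were 2, 3, 2, 2, 2 and 5 for retinoid genes, 6, 4, 4, 4, 4 and 9 for drug and steroid genes, 3, 4, 3, 3, 3 and 9 for metal genes and 3, 2, 2, 2, 2 and 4 for selenoproteins. In the summed fit they were 2 (retinoid), 5 (drug and steroid) and 3 (metal).

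Part of the epithelial junction and basement membrane genes rose. Of 25 tight junction and keratin genes, 10 were higher and 1 lower (median 0.40). Krt18, a keratin of simple epithelia, was at 118, 141 and 118 CPM untreated and 403, 405 and 223 CPM with BPA (1.45 ± 0.21, adjusted p = 0.00581), and the junction genes Ocln (1.81 ± 0.24), Cldn4 (0.95 ± 0.13) and Cldn6 (1.89 ± 0.30) rose with it. Krt7 was the one that fell (-0.85 ± 0.21). Among 21 laminin and basement membrane genes 7 were higher and 2 lower, with the laminin gene Lama5 changing by 0.87 ± 0.12 and Agrn, encoding agrin, by 0.76 ± 0.11. Col4a1, a chain of basement membrane collagen, was at 398, 323 and 285 CPM untreated and 922, 1001 and 423 CPM with BPA (1.22 ± 0.29, adjusted p = 0.0305), so that replicate 3 lay just above the untreated range. Cdh1 (E-cadherin) rose by 0.53 ± 0.09 and Vim (vimentin, an intermediate filament of mesenchymal cells) fell (-1.04 ± 0.13, adjusted p = 0.00359). Of 24 collagen genes 3 were higher and 0 lower, where 8.13% of all genes tested were higher. In the collagen list BPA replicate 3 stood farther from the untreated libraries than the other 2, with a median distance over the list of 0.61 against 0.20 and 0.05. Counts of higher genes with one library left out, in the order above, were 0, 1, 0, 0, 0 and 4 for collagens, 5, 7, 5, 5, 5 and 12 for junctions and keratins and 4, 3, 2, 2, 2 and 10 for basement membrane, and in the summed fit 1, 5 and 2.

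Of 21 endoderm and hepatic transcription factor genes, 7 were higher and 0 lower (median 1.04). Hnf4a was at 16.7, 11.9 and 13.6 CPM untreated and 180.4, 178 and 70.5 CPM with BPA (3.35 ± 0.36, adjusted p = 0.0018). Foxa3 (3.26 ± 0.44) and Foxa2 (2.83 ± 0.42) rose too, and Nr1h4, the bile acid receptor FXR, was unlisted in the untreated libraries and at 1.93, 1.37 and 1.21 CPM with BPA (at least 5.32-fold, named after its values were seen). Foxa2, at 31.1, 29.4 and 10.4 CPM in the BPA replicates, was much closer to its untreated levels (2.37, 3.62 and 3.95 CPM) in replicate 3. Calls in this list numbered 7, 7 and 6 without untreated replicates 1, 2 and 3 and 6, 6 and 14 without BPA replicates 1, 2 and 3.

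Over all genes tested 8.13% were higher and 5.72% lower, and 13.9% were called in either direction. Among the signalling lists, Wnt (12% called), hedgehog (15.4%) and BMP (17.4%) lay near this last share. The Nodal (29.4%) and FGF (31.8%) lists lay above it. The Nodal and Activin pathway had 4 lower and 1 higher of 17. Lefty2, a feedback inhibitor of Nodal, was at 284, 256 and 238 CPM untreated and 153, 145 and 165 CPM with BPA (-0.75 ± 0.08, adjusted p = 0.00202). Lefty1 (-0.74 ± 0.11) and the co-receptor gene Tdgf1 (-0.58 ± 0.11) fell as well, while Furin, encoding a protease that cleaves proproteins, rose (0.90 ± 0.15). FGF and ERK feedback genes were split, 3 higher and 4 lower of 22, with the inhibitor genes Spry4 (-0.70 ± 0.11) and Spry2 (-0.50 ± 0.09) lower. In the BMP list 3 of 23 were higher and 1 lower: the ligand gene Bmp2 was at 1.65, 2.38 and 2.21 CPM untreated and 16.0, 18.6 and 3.40 CPM with BPA (adjusted p = 0.023), and Bmp4, the ligand that induces germ cells, at 16.3, 15.2 and 15.6 and 7.83, 8.64 and 12.3 CPM (adjusted p = 0.0459). The call of Bmp4 held in 12 of 23 alternatives. In the Wnt list 3 of 25 were higher and 0 lower. The secreted Wnt inhibitor gene Sfrp5 was at 3.04, 1.67 and 1.93 CPM untreated and 118, 115 and 21.6 CPM with BPA (5.26 ± 0.67, adjusted p = 0.00352). The hedgehog ligand gene Ihh rose by 3.19 ± 0.40 (adjusted p = 0.00319), one of 2 higher genes of 13 in its list. With one library left out, in the order above, lower genes numbered 2, 2, 2, 3, 3 and 5 (Nodal) and 2, 2, 1, 1, 1 and 4 (FGF), and higher genes 1, 1, 1, 0, 0 and 4 (BMP), 1, 1, 1, 1, 1 and 5 (Wnt) and 1, 1, 1, 1, 1 and 2 (hedgehog). The summed fit called 1 FGF gene lower and 1 BMP, 1 Wnt and 1 hedgehog gene higher.

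Imprinted genes, which are expressed from one parental copy, contributed several of the most abundant rises. Of 42 tested, 12 were higher and 2 lower (median 0.34). H19, a long noncoding RNA (chromosome 7, 142575529 to 142578143, mm10), was at 1627, 1759.8 and 1560.4 CPM untreated and 4854, 4571 and 2969.5 CPM with BPA (1.32 ± 0.16, adjusted p = 0.00313). Its neighbour Igf2, a fetal growth factor gene, was at 320.3, 310.4 and 246 and 845, 781 and 838 CPM (1.49 ± 0.10, adjusted p = 0.000338), with BPA replicate 3 inside the range of the other 2. Peg10 was at 1328, 1438 and 1299 CPM untreated and 4529.7, 4387 and 3345 CPM with BPA (1.59 ± 0.11), and the noncoding RNA genes Rian and Meg3 of one cluster rose by 1.95 ± 0.19 and 2.42 ± 0.25. In the insulin-like growth factor list 5 of 14 were higher and 1 lower, the last being the binding protein gene Igfbp3 (-0.69 ± 0.17, adjusted p = 0.0356, named after its values were seen). With one library left out, in the order above, higher imprinted genes numbered 10, 8, 11, 9, 9 and 15.

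Falls were more uniform across replicates and smaller. Of 55 nuclear genes of oxidative phosphorylation, 26 were lower and 0 higher (median -0.30). Cox6c, a subunit of cytochrome c oxidase, was at 114, 115 and 109.9 CPM untreated and 70.8, 67.7 and 67.0 CPM with BPA (-0.72 ± 0.07, adjusted p = 0.00106). The ATP synthase gene Atp5g3 fell (-0.61 ± 0.05), and the complex I gene Ndufa1, on chromosome X, was at 39.1, 48.2 and 39.3 CPM untreated and 15.8, 16.2 and 13.1 CPM with BPA (-1.49 ± 0.14). Of 31 proteasome subunit genes 17 were lower and 0 higher (median -0.25). The catalytic subunit gene Psmb5 was at 98.2, 89.4 and 99.0 CPM untreated and 60.3, 56.3 and 56.6 CPM with BPA (adjusted p = 0.0018), and Psma6, of the outer ring, at 192, 183 and 177 and 122, 117 and 127 CPM (adjusted p = 0.00185). Ribosome biogenesis had 15 lower and 0 higher of 28 (median -0.28), among them the snoRNP genes Nhp2 (-0.55 ± 0.07) and Nop58 (-0.39 ± 0.05). Mitochondrial ribosomal protein genes had 11 lower of 49 and 0 higher. With one library left out, in the order above, the lower genes numbered 19, 18, 17, 17, 11 and 25 for oxidative phosphorylation, 15, 8, 9, 7, 6 and 18 for the proteasome, 8, 9, 4, 3, 3 and 17 for ribosome biogenesis and 9, 6, 4, 3, 2 and 10 for mitochondrial ribosomes. With BPA replicates 1 and 2 summed they numbered 16, 7, 3 and 2.

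Genes with a short total exon length fell more often than those with a long one. The length covers all annotated exons of a gene, so it is not the length of a transcript. Cytosolic ribosomal protein genes, with a median length of 1754.5 bases and 65 lower and 1 higher of 82, were not set apart. Genes averaging at least 10 CPM were cut into 5 groups of like size by total exon length. The shortest group (57 to 2771 bases) had 19.4% lower and 10.2% higher genes and a median change of -0.10, and the longest group (8176 bases or more) had 4.24% lower, 13.9% higher and a median of 0.05. The median of the shortest group stood -0.08, -0.08 and -0.13 from the untreated mean in BPA replicates 1 to 3, and -0.02 to 0.02 in the untreated libraries. With loess offsets for length and GC content per library, 18 oxidative phosphorylation, 14 proteasome and 15 ribosome biogenesis genes were called lower. The lists described here whose counts moved by more than 1.5 times under these offsets were mitochondrial ribosomal proteins (7 lower), naive pluripotency (6 lower), early germ cell genes (3 lower), histone variants (3 lower) and the hedgehog pathway (1 higher).

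Part of the genes of pluripotent and dividing cells fell. Of 20 naive pluripotency genes 10 were lower and 0 higher (median -0.33), and of 15 core pluripotency genes 5 were lower and 0 higher. Dppa5a, an RNA-binding protein gene of pluripotent cells, was at 910.3, 895 and 923 CPM untreated and 511, 494 and 435 CPM with BPA (-0.92 ± 0.06, adjusted p = 0.000367). Pou5f1, encoding Oct4, was at 436, 426 and 466 CPM untreated and 284, 288 and 309 CPM with BPA (-0.59 ± 0.06, adjusted p = 0.00136). Of 14 early germ cell genes 5 were lower and 0 higher, among them Prdm14, a transcription factor gene needed for germ cell formation, at 65.4, 71.5 and 74.0 CPM untreated and 42.3, 45.3 and 48.6 CPM with BPA (-0.63 ± 0.09, adjusted p = 0.00545). Of 28 mitosis genes 9 were lower and 0 higher, among them Ube2c (-0.51 ± 0.06) and Top2a (-0.32 ± 0.04), and of 34 DNA replication genes 4 were lower and 0 higher, among them Rrm2 (-0.56 ± 0.08). H2afz, a histone variant of active promoters, was at 439, 436 and 403 CPM untreated and 247, 250.04 and 271 CPM with BPA (-0.73 ± 0.06, adjusted p = 0.000823), one of 5 lower of 16 histone variant genes. H1f0, the linker histone of resting cells, rose instead (1.13 ± 0.21). The chaperone gene Hsp90aa1 fell (-0.42 ± 0.04, adjusted p = 0.000826), with 5 lower and 1 higher of 14 in the heat shock list. Of 18 p53 target genes 5 were lower and 0 higher, among them Pmaip1, the apoptosis gene Noxa (-0.73 ± 0.10). With one library left out, in the order above, lower genes numbered 6, 5, 4, 5, 5 and 10 (naive), 2, 4, 2, 3, 3 and 8 (core), 2, 2, 1, 1, 1 and 4 (early germ cell), 8, 6, 7, 5, 5 and 14 (mitosis), 3, 3, 2, 1, 1 and 9 (replication), 4, 3, 2, 2, 2 and 5 (histone variants), 2, 2, 3, 2, 2 and 5 (heat shock) and 2, 2, 2, 2, 2 and 7 (p53). In the summed fit they numbered 5, 3, 2, 5, 2, 2, 2 and 2 in the same order.

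**Figure D3:**
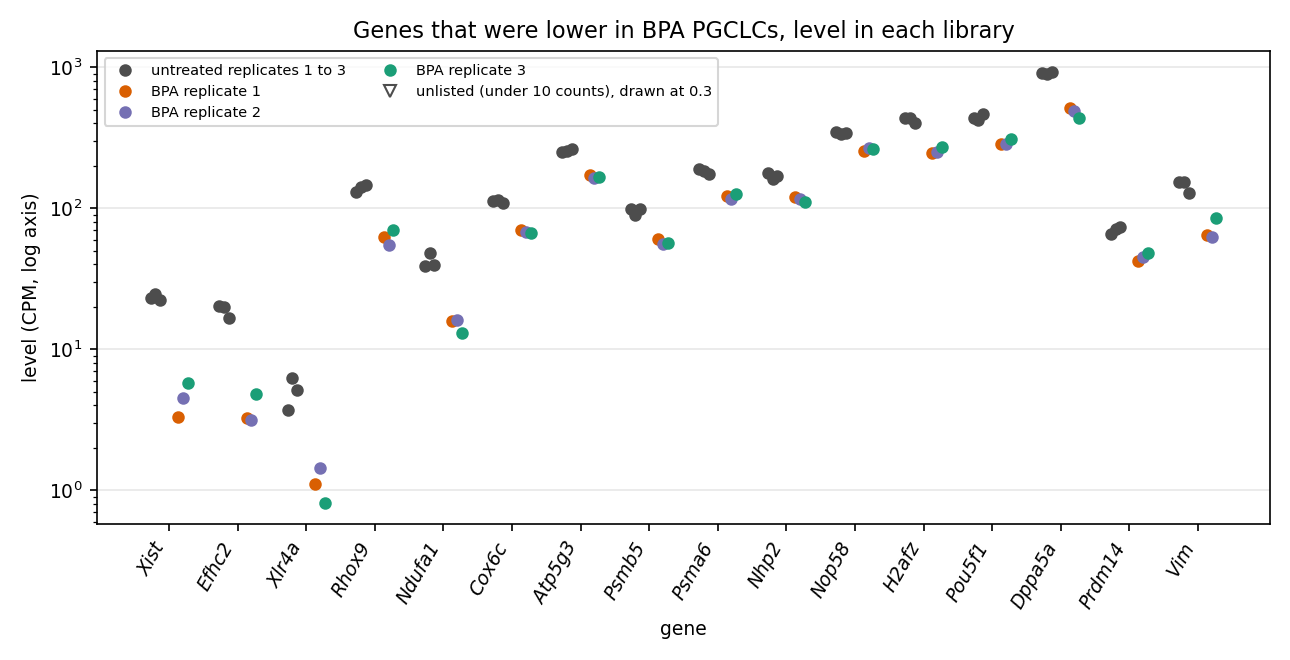
Level of 16 lower genes in each PGCLC library (y axis, CPM, log axis), untreated replicates in grey and BPA replicates in colour. The 3 BPA libraries lie below the 3 untreated ones for every gene shown, and BPA replicate 3 lies close to the other 2.

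The 15 largest falls, picked by the same rules as the largest rises above, ran from -3.60 to -1.97 and included 8 genes on chromosome X. Gene models and pseudogenes were passed over here too, so the 8 of 15 describes the named genes alone. Xist, the noncoding RNA that coats an inactive X chromosome (chromosome X, 103460366 to 103483254, mm10), was at 23.2, 24.8 and 22.3 CPM untreated and 3.33, 4.49 and 5.75 CPM with BPA (-2.37 ± 0.21, adjusted p = 0.000864). Efhc2 was at 20.3, 20.1 and 16.8 CPM untreated and 3.23, 3.15 and 4.86 CPM with BPA (-2.34 ± 0.21, adjusted p = 0.00102). The other 6 were Xlr3c (-3.28 ± 0.89, unlisted in 1 BPA library and read there as 0), Pet2 (-2.36 ± 0.44), Fthl17d (-2.18 ± 0.502), Xlr5a (-2.17 ± 0.46), Xlr4a (-2.17 ± 0.35) and Fthl17a (-2.06 ± 0.42), and the X-linked homeobox genes Rhox9 (-1.15 ± 0.10) and Rhox6 (-0.998 ± 0.12) fell as well. Xlr, Fthl17 and Rhox genes belong to families of close copies, so the counting may have split their reads. Off chromosome X, Alox15, a lipoxygenase gene, was at 1.74, 3.49 and 2.56 CPM untreated and 0.424, 0.368 and 0.477 CPM with BPA, and Sct, the hormone secretin, at 5.57, 5.84 and 3.89 and 1.21, 1.44 and 1.21 CPM. Hist1h3e (-2.48 ± 0.42) and Hist1h4d (-1.97 ± 0.52) are histone genes whose mRNAs mostly lack a poly(A) tail, and Scarna2 (-2.41 ± 0.57) is a small Cajal body RNA.

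Lars2, a mitochondrial tRNA synthetase gene, the ribosomal RNA genes n-R5-8s1 and CT010467.1 and Gm23935, annotated as a miRNA gene, all fell. CT010467.1 was at 19416, 17563 and 18300.1 CPM untreated and 8339.9, 6017 and 4085 CPM with BPA (-1.58 ± 0.22, adjusted p = 0.00438), and Lars2 at 2439, 1824 and 4199 and 674, 498 and 526 CPM (-2.32 ± 0.29). The 3 tested ribosomal RNA genes with Lars2 and Mir6236, the last added after its values were seen, together took 2.06% to 2.41% of counts in the untreated and 0.920%, 0.671% and 0.509% in the BPA libraries. Leaving them out of the fit gave 2329 calls in place of 2321. Copies of ribosomal RNA genes are near-identical, and their levels are uncertain for that reason. Whether the reads counted at Lars2 and Mir6236 come from transcripts of these genes was not tested. Of 20 aminoacyl-tRNA synthetase genes, a list without Lars2, 1 was lower and 0 higher (median change -0.10).

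Shifts along whole chromosomes were present beside these gene groups. On chromosome X 113 of 623 tested genes were lower (18.1%) and 34 higher (5.46%), with a median change of -0.32, and X held 11.8% of all lower genes. On chromosome 8 139 of 913 were higher (15.2%) and 18 lower (1.97%), with a median of 0.19 and 10.2% of all higher genes. Medians of the 18 other autosomes ranged from -0.04 to 0.05. Each BPA library showed both shifts to a like extent: among genes averaging at least 10 CPM, medians on X were -0.23, -0.24 and -0.22 from the untreated mean in BPA replicates 1 to 3 and -0.03 to 0.05 in the untreated libraries, and on chromosome 8 they were 0.16, 0.18 and 0.17 against -0.01 to 0.01. Split into 6 equal stretches, chromosome 8 had positive medians in all 6 (0.09 to 0.27) and X negative ones in all 6 (-0.35 to -0.16). In EpiLCs the BPA libraries' medians were 0.01 to 0.09 on X and -0.04 to -0.01 on chromosome 8. The untreated EpiLC libraries spread more widely, from -0.12 to 0.11 on X and from -0.02 to 0.05 on chromosome 8. Karyotypes were not used here. With both chromosomes left out, 1169 genes were called higher and 789 lower.

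**Figure D4:**
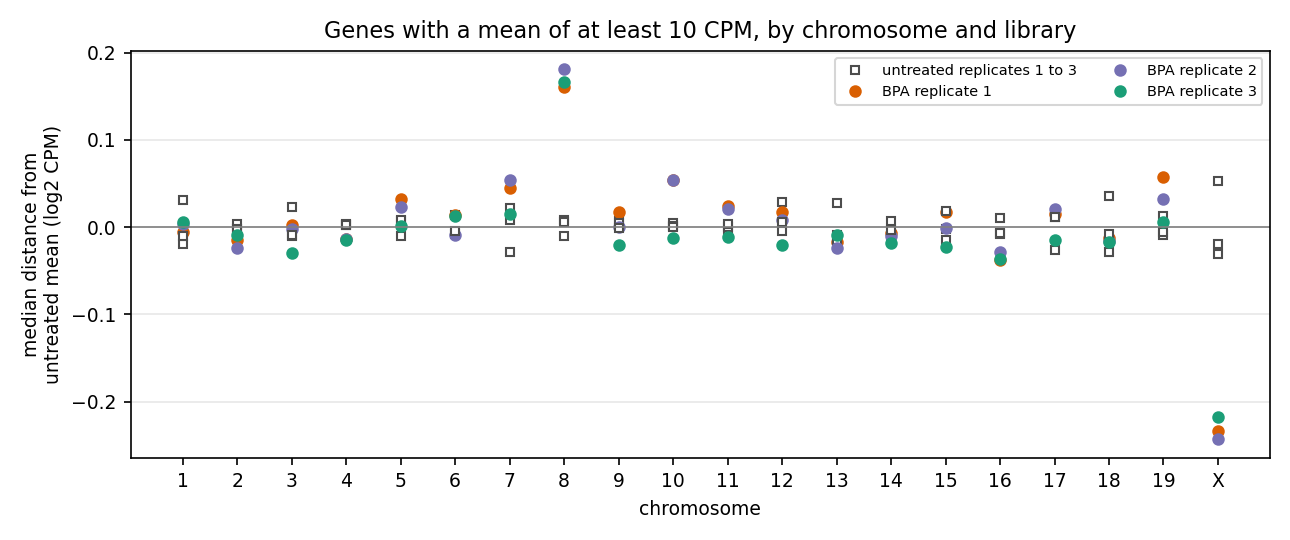
Median distance of genes averaging at least 10 CPM from the untreated mean (y axis, log2 CPM) by chromosome (x axis), for untreated (squares) and BPA (circles) PGCLC libraries. Chromosome 8 lies near 0.17 and chromosome X near -0.23 in all 3 BPA libraries, and the other chromosomes lie within 0.06 of 0.

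BPA replicate 3 differed from replicates 1 and 2 in the size of the rises more than in the falls. Among the 1362 higher genes the median distance from the untreated mean was 0.96 and 0.97 in replicates 1 and 2 and 0.53 in replicate 3, and replicate 3 was the nearest of the 3 to the untreated mean in 79.3% of them. Among the 959 lower genes the medians were -0.50, -0.55 and -0.51, and replicate 3 was the nearest in 49.0%. Of 9434 genes averaging at least 10 CPM, replicate 3 lay at least 2-fold below the mean of replicates 1 and 2 in 166 and at least 2-fold above in 26, whereas replicates 1 and 2 were never 2-fold apart. The average is over all 6 libraries, so a gene high in replicates 1 and 2 alone passes more easily than one high in replicate 3 alone. The 166 and the 26 are for that reason not on an equal footing. Some genes stood far above the untreated level in replicates 1 and 2 and near or below it in replicate 3. Irs4, an insulin receptor substrate gene on chromosome X, was at 32.8, 35.2 and 0.842 CPM against 1.71, 0.927 and 3.38 CPM untreated and did not pass the test over all 6 libraries (adjusted p = 0.0691). Lhx1, a transcription factor gene of anterior endoderm and mesoderm, was at 44.9, 42.5 and 3.51 CPM against 3.45, 2.97 and 3.92, and Pga5, a pepsinogen gene, at 26.1, 25.9 and 3.26 CPM against 0.981, 1.76 and 2.18. Foxq1 was at 57.3, 58.2 and 10.6 CPM against 8.48, 5.69 and 5.12 CPM. Srgn and Sox7, at 92.8, 80.6 and 9.21 CPM and 19.2, 18.7 and 2.27 CPM, lay in replicate 3 below the untreated libraries (57.7, 40.8 and 37.2 and 10.7, 8.47 and 8.94 CPM) and in replicates 1 and 2 above them. The distances of replicate 3 below the others ranged from -4.68 (Irs4) to -2.39 (Foxq1) on the log2 scale, in the order Irs4, Cyp26a1, Lhx1, Srgn, Pga5, Sox7, Sfrp5 and Foxq1.

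The 8 genes farthest above were led by matrix and growth genes. Col3a1, a fibrillar collagen gene, was at 9.20, 8.67 and 31.9 CPM against 5.54, 5.10 and 4.14 CPM untreated (distance 1.78), and Igfbp5 at 61.9, 50.7 and 194 against 48.3, 38.0 and 42.0 (distance 1.78). Col2a1, Nnat, Rgs5, Plagl1, Frem2 and the gene model C530008M17Rik followed, with distances of 1.63, 1.42, 1.34, 1.30, 1.26 and 1.496. None of these 8 passed the test over all 6 libraries. Without BPA replicate 3 the counts were 1935 higher (11.1%) and 1271 lower (7.3%). Of 29 glycolysis and hypoxia genes 0 were called by edgeR over all 6 libraries, 6 had an unadjusted p below 0.05, and DESeq2 called 3 and limma 0. Without replicate 3 edgeR called 9 higher, and the summed level of the whole list was 15309, 14958 and 16823 CPM untreated and 18663, 18180.0 and 14261 CPM with BPA.

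**Figure D5:**
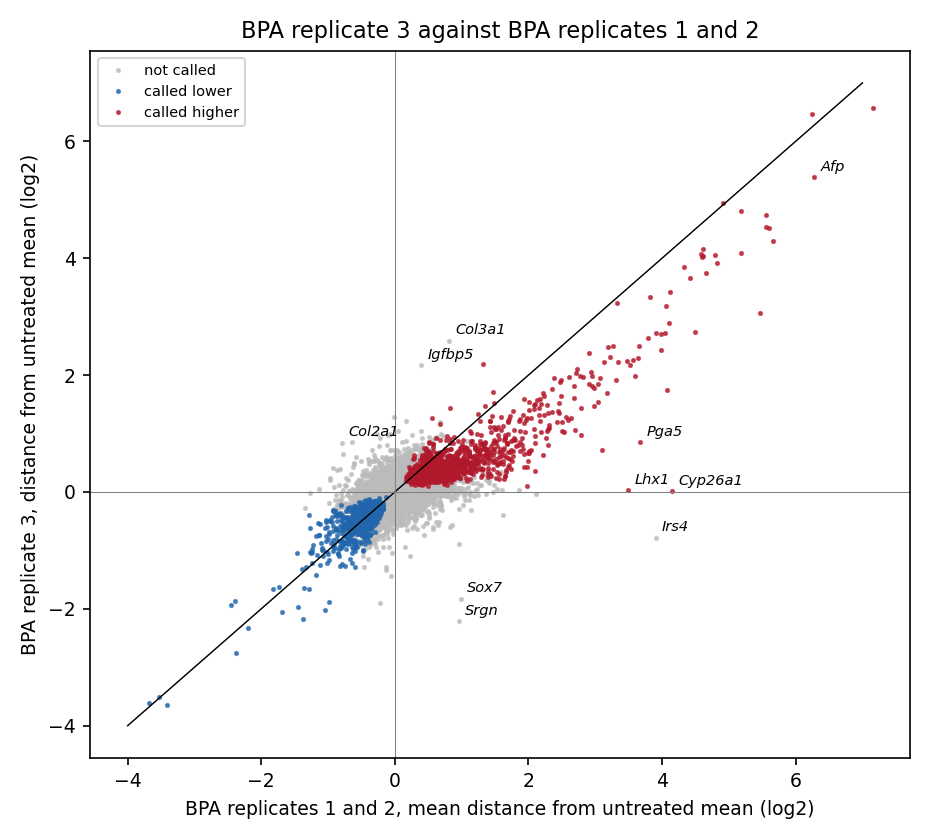
Distance of BPA replicate 3 from the untreated mean (y axis, log2) against the mean distance of BPA replicates 1 and 2 (x axis, log2) for 9434 genes averaging at least 10 CPM; the line marks equality. Most higher genes (red) lie below the line and lower genes (blue) lie along it, with Irs4, Cyp26a1 and Lhx1 far to the right and near or below 0 on the y axis.

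Marker lists of other cell types that such aggregates could hold are short, and 13.9% of all genes tested were called. None of 5 endothelial, 3 blood, 3 neuroectoderm and 5 stromal markers tested passed in either direction by edgeR; 2 endothelial and 1 stromal marker had an unadjusted p below 0.05, DESeq2 called 1 stromal marker, and limma called none. The endothelial markers had a median change of -0.68, and in 3 of the 5 all 3 BPA libraries stood below all 3 untreated ones. In 2 of the 5 stromal markers (median change 0.36) all 3 BPA libraries stood above all 3 untreated ones, and in 0 of the blood and neuroectoderm markers did the groups separate. Stromal markers summed to 106.1, 78.3 and 82.4 CPM untreated and 118, 106.5 and 142 CPM with BPA, in replicates 1 to 3. Blood markers summed to 11.9, 9.55 and 9.83 and 16.7, 16.1 and 9.26 CPM. The endothelial sums were 197, 222 and 216 and 198, 197 and 228 CPM. The neuroectoderm sums were 44.7, 47.1 and 46.6 and 41.7, 43.7 and 40.4 CPM. In the mesoderm list 1 of 4 was higher and 1 lower: Mixl1 at 14.8, 15.3 and 0.589 CPM with BPA, unlisted in untreated replicates 1 and 2, and Kdr at 19.7, 19.97 and 22.1 CPM untreated and 8.29, 7.97 and 15.6 CPM with BPA. Trophoblast markers had Cdx2 higher (1.71 ± 0.42) and Krt7 lower among 6, and of 5 parietal endoderm markers Col4a1 alone was higher.

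Of 12 oestrogen-responsive genes 4 were higher (33.3%, against 8.13% of all genes tested) and 0 lower, with Igfbp4 at 56.7, 45.6 and 41.0 CPM untreated and 117, 109.9 and 120.1 CPM with BPA (1.27 ± 0.12, adjusted p = 0.0012). The list also holds Pdzk1 and Ctsd, which are also in the brush border and lysosome lists. Of 8 receptors proposed to bind BPA, 0 were higher and 1 was lower: Esrrb, an orphan receptor that is also a naive pluripotency factor, at 544, 534 and 568 CPM untreated and 431, 429.6 and 395 CPM with BPA (-0.39 ± 0.05). Among amino acid and glucose transporters 5 were higher and 4 lower of 30, and among interferon and innate immune genes 4 and 1 of 20, with B2m, the light chain of MHC class I, rising by 1.16 ± 0.15 (adjusted p = 0.00356). Of 35 later germ cell genes 5 were higher and 2 lower, and Tdrd7, a piRNA pathway gene, went from 7.12 ± 0.127 to 14.4 ± 1.94 CPM. Higher genes with one library left out, in the order above, numbered 2, 2, 1, 2, 3 and 5 (oestrogen-responsive), 2, 2, 2, 2, 2 and 10 (transporters), 3, 3, 2, 2, 2 and 6 (interferon) and 3, 4, 2, 0, 0 and 4 (later germ cell), and the summed fit called 2 transporter, 2 interferon and 1 later germ cell genes higher.

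Whether a change differed from that in EpiLCs was tested as the BPA effect in PGCLCs minus the BPA effect in EpiLCs, in 1 fit of all 12 libraries. It was called for 232 of 17608 genes (1.32%), 177 higher (1.01%) and 55 lower (0.312%). Of the 1362 genes that were higher in BPA PGCLCs, 162 had a larger effect in PGCLCs than in EpiLCs, and of the 959 lower genes 48 had a more negative one. No EpiLC library listed 149 of the higher and 45 of the lower genes, so for these no EpiLC effect was measured. Lysosome genes had 11 of 35 with a larger effect in PGCLCs. Ctsl was at 254, 259 and 297 CPM in untreated and 268, 247 and 257 CPM in BPA EpiLCs, and its difference of effects was 1.74 ± 0.37 (adjusted p = 0.0413). H19 was at 10.7, 10.5 and 14.8 and 9.54, 8.97 and 10.5 CPM in EpiLCs, with a difference of 1.61 ± 0.25 (adjusted p = 0.01). Efhc2, at 5.96, 5.85 and 5.99 and 6.68, 5.43 and 4.78 CPM in EpiLCs, had a difference of -2.27 ± 0.29 (adjusted p = 0.00318). The count of 232 was 744 without PGCLC BPA replicate 3 and 767 without untreated EpiLC replicate 3, and between 83 and 120 without any one of PGCLC BPA replicates 1 and 2, EpiLC BPA replicates 1, 2 and 3 and untreated EpiLC replicate 1.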

How the data were processed

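The authors deposited one table of whole-number read counts per gene and library and, per cell type, a matrix of CPM, counts scaled to the library total. Both leave out genes under 10 counts, which were read as 0. Per the submitters' processing notes, bcl2fastq 2.19.1.403, FastQC, STAR and HTSeq were used with mm10; the sources used here do not give the strand setting, so overlapping antisense genes cannot be told apart. Symbols and positions come from GENCODE M21 (mm10), in which 21695 of 21728 gene IDs of the 12 files were found. Rows without a gene (no feature, 9.16% to 10.7% of counts, and ambiguous, 4.54% to 6.07%) were left out.

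From the counts, edgeR 4.0.16 (R 4.3.3) gave quasi-likelihood tests with filterByExpr, TMM scaling and Benjamini-Hochberg adjustment. Printed CPM are TMM-scaled; deposited CPM entered one alternative alone, limma-trend (limma 3.58.1) with a pseudocount of 1. DESeq2 1.42.0 was another. The script was tested on simulated counts. Samples were grouped by title. Genes named are the 15 largest rises and falls at a mean of at least 1 CPM, the 10 largest CPM differences, up to 4 called members per list, the 8 genes of BPA replicate 3 farthest each way, the reporter genes, and those said to be named after their values were seen. Members and lists were chosen with earlier results of these data known. Same-numbered libraries were not paired: their deviations correlated at 0.07, -0.04 and -0.05.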

Additional observations from a re-analysis of the deposited data

Results flagged for a closer look

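The BPA effect differed between PGCLCs and EpiLCs in 232 of 17608 genes, by edgeR's quasi-likelihood test in 1 fit of 12 libraries. For the genes named in the text, the PGCLC effect less the EpiLC effect is given on the log2 scale. Among lysosome and uptake genes it was 4.36 for Ctsh, 2.194 for Lgmn, 1.92 for Ctsb, 1.81 for Lipa, 1.74 for Ctsl, 2.76 for Fcgrt and 2.43 for Vil1. Among genes of secreted proteins and lipid transport it was 4.95 for Apoa2, 4.54 for Rbp4, 4.17 for Gpx3, 4.11 for Apob, 2.59 for Selenop, 2.54 for Mttp, 3.16 for Soat2, 1.63 for Dgat2 and 0.76 for Msmo1. Transport and metabolism genes gave 10.09 for Slc26a1, 3.62 for Stra6l, 3.20 for Abcc2, 1.33 for Gstm1 and 1.08 for Slc39a4. The value of Slc26a1, unlisted in the untreated PGCLC libraries, depends on the prior count of the fit and is no bound. Some of these genes were also near the listing limit in EpiLCs. Ctsh was at 0.493, 0.640 and 1.11 CPM in untreated EpiLCs and at 0.618 and 0.496 CPM in BPA replicates 1 and 3, unlisted in replicate 2. Apob was at 2.07 to 3.20 CPM in EpiLCs and unlisted in untreated replicate 3. Unlisted values were read as 0, so such differences are uncertain in size.

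Growth, imprinted and signalling genes gave 5.02 for Sfrp5, 2.20 for Meg3, 1.69 for Rian, 1.61 for H19, 1.43 for Igf2 and 1.34 for Igfbp4. Junction, chromatin, germ cell and immune genes gave 1.88 for Cldn6, 1.59 for Ocln, 1.43 for H1f0, 1.29 for Tdrd7 and 1.17 for B2m. The difference was negative for Alox15 (-2.66), Efhc2 (-2.27), Lars2 (-2.02), CT010467.1 (-1.44), Ndufa1 (-1.31), Pmaip1 (-0.92) and Rrm2 (-0.64). Of these 39 genes, 22 were called with the replicate number as a block and 19 without EpiLC BPA replicate 1, the lowest count over the alternatives run. The cause of these differences was not tested.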

How the results depend on the processing

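Of the 131 genes named in the text with a called BPA effect, none changed direction under any alternative run. Each was called with RLE size factors, with no filter on low counts, with unlisted genes read as 9 counts and without BPA replicate 3; 130 were called by DESeq2, 125 with loess offsets, 117 with the replicate block, 111 by limma voom, and 105 with BPA replicates 1 and 2 summed, an alternative chosen after seeing the data, as were the loess offsets. A test against a 1.2-fold change called 863 genes (582 higher, 281 lower) in place of 2321, and the summed fit 755 (454 and 301). With the replicate number as a block, 1618 were called (1021 higher, 597 lower), and in the fit of 12 libraries 548 were lower; the numbers did not pair the libraries. Leaving out 1 library gave 668 to 3206 calls (383 to 1935 higher, 268 to 1271 lower). For the difference from EpiLCs, 232 calls (177 higher, 55 lower) became 779 by DESeq2 (555 and 224), 94 with the replicate block (74 and 20) and 83 to 767 without 1 library (68 to 592 and 15 to 304). The chromosome medians were 0.18 (8) and -0.26 (X) over genes averaging 10 CPM or more, and 0.16 to 0.20 and -0.37 to -0.28 without 1 library. The causes were not tested, beyond fewer libraries where some were left out or summed. Depth limits genes under 10 counts: a gene unlisted in a whole group is given a bound, and one unlisted in some libraries of a PGCLC group (Apoa4, Fga, Mixl1, Xlr3c) is read as 0 there, so its fitted change is no bound. In the fit of 12 libraries the same holds for genes unlisted in some EpiLC libraries, such as Ctsh, Apob and Slc26a1. Calls of Mixl1 and Xlr3c held in 11 of 21 alternatives each. Besides Prdm1 and Bmp4, other calls were also weak. That of Scarna2 held in 12 of 23 alternatives, and those of Cyp26a1, Lhx1 and Gpx1 in 13 of 23. Fthl17d held in 13 of 22, Col4a1 in 14 of 22, and Hist1h4d and Kdr in 14 of 23. The 3 libraries per group, 2 of them near-identical, limit the spread that p-values rest on.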
